A study of Mus musculus with 12 samples.

Results

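The claudins are a family of small proteins that span the membrane in 4 passes and form the strands of tight junctions, the seals between neighbouring epithelial cells. Some claudins tighten that seal, and others form pores that let ions and water pass between cells, so the mixture a tissue expresses sets how leaky its epithelium is. In the pancreas, duct cells carry several claudins, and Cldn18 is known as a stomach claudin that appears in ductal neoplasms. Here the family was read as 10 members (Cldn1, Cldn2, Cldn3, Cldn4, Cldn6, Cldn7, Cldn12, Cldn15, Cldn18 and Cldn23), listed by name and matched to Ensembl identifiers through the GENCODE M21 annotation. All 10 were found among the 53715 genes of the tables. The annotation holds 33 protein-coding claudin genes, which leaves 23 that are not members.

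RNA was sequenced from mouse pancreatic ductal adenocarcinoma organoids, epithelial cultures grown in Matrigel from tumours of C57/Bl6 mice. The tumours carried a mutant Trp53 (Trp53LSLR172H/LOH, with the other allele lost per the labels) that is switched on by Pdx1-Cre, a Cre driven by the Pdx1 promoter. There were 2 organoid lines, named mT6 and mT69a. In each line the control was a clone with a Rosa26 knockout and an empty vector, the knockout was a clone with an Spdef knockout and an empty vector, and the vector group was the Spdef-knockout clone with an SPDEF overexpression vector. SPDEF is a transcription factor of the ETS family, known from goblet and other secretory cells. All 12 libraries therefore carry the same tumour genotype, an edited locus and a vector, and each of the 6 groups has 2 libraries. Each genotype of a line is represented by 1 clone, so an effect of the knockout and a difference between clones cannot be told apart. Whether 2 libraries of 1 group stem from separate cultures is not stated, and p-values therefore cover the spread between libraries alone, which may be technical.

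Libraries held 9094295 to 28903831 expected counts, and mitochondrial genes took 12.7% to 15.5% of them in libraries numbered 1 and 18.6% to 27.1% in libraries numbered 2. The targeted gene was read first. In mT6 the counts of Spdef were 30 and 29 (control), 0 and 2 (knockout) and 1 and 0 (vector). In mT69a they were 2 and 4 (control), 2 and 0 (knockout) and 2 and 0 (vector). Averaged over the lines Spdef was lower in the knockout by a log2 fold change of -3.02, which did not pass edgeR's test (adjusted p = 0.0793) but passed with the replicate number as a block (0.0258). Spdef passed the count filter only through the mT6 control libraries, where it is high, so these values add no support to its counts. In mT69a alone the log2 fold change was -1.48 (SE 1.33, adjusted p = 0.646). The mouse gene was thus low in the control of mT69a and at 0 to 2 counts in every library labelled as carrying the vector. The species and sequence of the vector's SPDEF are not given in the sources used here, so directions in the vector comparisons rest on the labels. All 8 ductal epithelium markers passed the count filter, summing to between 3824 and 6956 CPM (counts scaled to library size by TMM factors) per library. None of the fibroblast, endothelial or acinar markers passed it (0 to 0.625 CPM summed). Of the immune markers 1 of 6, Cd68, passed (2.23 to 11.9 CPM summed over the list), while Cd3e had no count in any library.

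Levels between genes were compared in TPM, which corrects for transcript length. Cldn3 and Cldn4 are sealing claudins that also serve as receptors for an enterotoxin of Clostridium perfringens, and Cldn7 is a claudin that binds the adhesion molecule EpCAM. Cldn3 ranged from 89.2 to 198 TPM over the 12 libraries, Cldn7 from 75.5 to 163 TPM and Cldn18 from 69.0 to 157 TPM. These were the top 3 members by mean TPM in 5 of the 6 groups; in the mT69a vector group Cldn2 took the third place. Cldn4 ranged from 22.8 to 101 TPM, Cldn2 from 18.6 to 87.2 TPM and Cldn6 from 27.95 to 97.8 TPM. Cldn12 lay between 12.1 and 20.8 TPM and Cldn23 between 2.73 and 8.77 TPM. Cldn1 did not exceed 0.43 TPM and Cldn15 did not exceed 0.14 TPM in any library.

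**Figure D1:**
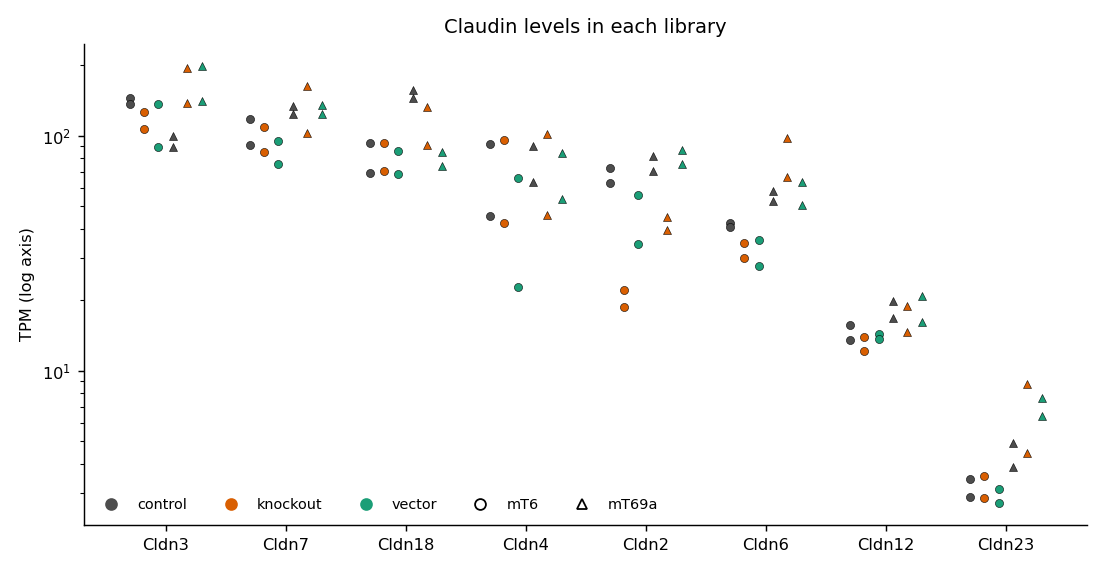
Transcript abundance (TPM, log axis) of the 8 claudins above 1 TPM, with 1 point for each library; colours give the condition, circles the mT6 line and triangles the mT69a line. Cldn3, Cldn7 and Cldn18 sit highest, Cldn23 lowest at 2.73 to 8.77 TPM, and Cldn2 is lowest in the knockout of each line.

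The plot of levels shows that the order of the members was much alike in the groups. Cldn3 had the highest mean in 5 of 6 groups and Cldn18 in the mT69a control, where it stood at 150 TPM ± 8.82 (SD, n = 2) against 129 ± 6.93 for Cldn7 and 94.3 ± 7.21 for Cldn3. In every group Cldn12, Cldn23 and the near-silent Cldn1 and Cldn15 came in the last 4 places. Many neighbours in the order could not be separated by their libraries. In the mT6 control, neighbours overlapped from Cldn7 through Cldn18 and Cldn4 down to Cldn2, and in the mT6 knockout from Cldn3 through Cldn7 and Cldn18 down to Cldn4. The 10 members together summed to 357 to 762 TPM, and the library numbered 1 was higher than that numbered 2 in 5 of 6 groups. Cldn2 spanned the widest range of the 8 expressed members, with its highest library at 4.70 times its lowest, and Cldn12 the narrowest, at 1.72 times.

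Of the channel-forming claudins, Cldn2 makes a pore for cations and water in leaky epithelia. It was the member with the clearest differences between conditions, and they ran in opposite directions in the comparisons with the knockout. In mT6, Cldn2 stood at 189 and 181 CPM in the control, at 54.9 and 55.3 CPM in the knockout and at 96.8 and 159 CPM in the vector libraries. In mT69a the values were 181 and 243 CPM in the control, 99.6 and 116 CPM in the knockout and 224 and 246 CPM in the vector libraries. In each line the knockout libraries lay below all control and all vector libraries. The vector libraries of mT6 stayed below the mT6 controls, whereas those of mT69a overlapped with theirs.

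By edgeR's quasi-likelihood test with Benjamini-Hochberg adjustment over all 14473 genes tested, Cldn2 fell in the knockout (log2 fold change averaged over the lines -1.36, SE 0.16, adjusted p = 0.000703). It fell by 1.75 in mT6 (SE 0.22, adjusted p = 0.00288), where the control mean was 3.36 times the knockout mean. In mT69a it fell by 0.97 (SE 0.22, adjusted p = 0.0197), a ratio of 1.96. With the vector it rose by 1.17 over the knockout averaged over the lines (SE 0.15, adjusted p = 0.00111), by 1.21 in mT6 (SE 0.22, adjusted p = 0.0157) and by 1.12 in mT69a (SE 0.22, adjusted p = 0.0159). These comparisons share the knockout libraries and are not independent of each other. Against the control, the vector libraries differed by a log2 fold change of -0.19 (SE 0.15, adjusted p = 0.483). The fall in mT6 exceeded that in mT69a by 0.77 (SE 0.31), a difference that did not pass the test (adjusted p = 0.188) but passed with the replicate number as a block (0.79, adjusted p = 0.0383).

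Both averages held in all 12 fits that left out 1 library. Within mT69a, the fall was lost without knockout library 1 (adjusted p = 0.163), control library 2 (0.153) or knockout library 2 (0.0678). The rise with the vector in mT69a was lost without any 1 of the 4 libraries compared (adjusted p = 0.0756 to 0.143), and that in mT6 without knockout library 1 (0.0983), knockout library 2 (0.103) or vector library 2, which also lowered the log2 fold change of Cldn2 to 0.83 (adjusted p = 0.0752).

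**Figure D2:**
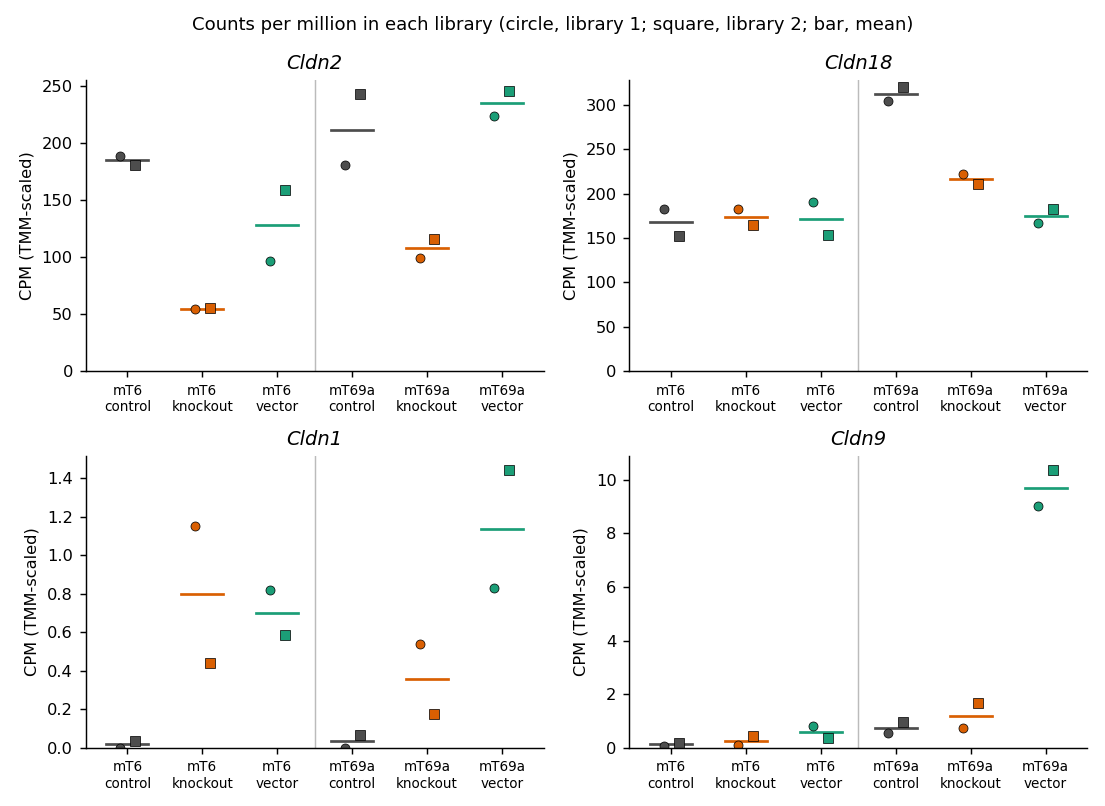
CPM scaled by TMM factors (linear axes from 0) of Cldn2, Cldn18, Cldn1 and Cldn9 in each library of the 6 groups; circles are libraries 1, squares libraries 2 and bars group means. Cldn2 is lowest in the knockout of each line (54.9 and 55.3 CPM in mT6), Cldn18 is highest in the mT69a control, Cldn1 is near 0 in the controls and Cldn9 is high in the mT69a vector libraries.

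Cldn2 lies on chromosome X (139800828 to 139811386, plus strand, GRCm38). ETS factors bind around a GGAA or GGAT core, and SPDEF is known to accept GGAT. The 250 bases before the RefSeq start of Cldn2, the member that moved in both comparisons, are shown for chrX:139800558-139800807 on the plus strand (RefSeq promoter table, GRCm38.p6), with GGAA and GGAT in capitals, or TTCC and ATCC where the match is on the other strand.
Cldn2 promoter: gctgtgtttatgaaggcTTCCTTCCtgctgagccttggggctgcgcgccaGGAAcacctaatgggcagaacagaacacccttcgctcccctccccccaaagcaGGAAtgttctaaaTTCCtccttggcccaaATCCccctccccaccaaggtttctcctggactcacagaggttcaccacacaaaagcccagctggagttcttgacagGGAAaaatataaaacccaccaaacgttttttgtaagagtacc
The window held 6 matches to GGAA and 1 to GGAT, counted on both strands. Such short motifs are common: of 32851 promoter windows of 250 bases, 93.4% held GGAA, 8.69% held it at least 6 times and 74.1% held GGAT. Among 13 windows of 9 members (Cldn23 was not matched), 12 held GGAA and 11 held GGAT. The longer CCGGAA stood in 5 of the 13, namely the 3 overlapping windows of Cldn12 and the 2 of Cldn7, against 12.03% of all windows, and not in that of Cldn2. CCGGAT stood in none of the 13 and in 4.94% of all windows. A match describes the letters only, and no binding data were analysed here.

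Cldn15, the other channel former and a cation pore of the intestine, had 0 to 3 counts in each library and did not pass the count filter. It is not counted among the 9 measured members, and no difference was detectable at this depth.

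Among the sealing claudins, Cldn1, best known from the water barrier of the skin, was almost silent in the controls. Its counts were 0 and 1 in the control libraries of mT6 and again 0 and 1 in those of mT69a. The knockout libraries had 13 and 9 counts in mT6 and 10 and 2 in mT69a, and the vector libraries had 7 and 5 in mT6 and 14 and 16 in mT69a. Every knockout and vector library was above every control library in counts. The level stayed low even so, at most 1.44 CPM, against a floor of 3 counts that corresponds to 0.107 to 0.352 CPM in single libraries.

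Scaled for library size, the summed counts of Cldn1 in the knockout were 28.6 times the control in mT6 (22 against 1 counts, 95% exact interval 4.62 to 1181) and 12.3 times in mT69a (12 against 1, 1.82 to 526). For the vector against the control the ratios were 28.9 in mT6 (4.28 to 1236) and 33.1 in mT69a (5.51 to 1351), intervals that cover counting error only. Cldn1 passed the count filter only through the knockout and vector libraries, where it is high, so its calls describe the same difference as its counts and are no further support for it. Averaged over the lines, Cldn1 passed edgeR's test as higher in the knockout (adjusted p = 0.0190) and in the vector libraries (adjusted p = 0.00324) than in the control. The fitted log2 fold changes of 3.91 (SE 0.81) and 4.63 (SE 0.80) depend on how the fit treats counts near 0. The first call was lost without mT6 knockout library 1 (adjusted p = 0.0595), mT69a control library 1 (0.0692), mT69a knockout library 1 (0.159) or mT6 control library 2 (0.0578), and the second held in all 12 such fits. In mT6 alone the knockout did not pass (adjusted p = 0.0529), but it passed with the replicate block (0.0164). Vector and knockout libraries differed by 0.72 (SE 0.55, adjusted p = 0.568).

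Cldn18, a claudin of the stomach lining and, as another isoform, of the lung alveolus, differed by line. In the mT69a control it stood at 304 and 319.7 CPM, in the mT69a knockout at 222 and 211 CPM and in the mT69a vector libraries at 167 and 183 CPM. These 3 pairs did not overlap, but the vector against the knockout in mT69a did not pass the test (log2 fold change -0.31, SE 0.14, adjusted p = 0.349). In mT6 the 6 libraries lay between 153 and 190.4 CPM with all conditions overlapping. Cldn18 was higher in the mT69a than in the mT6 control by a log2 difference of 0.89 (SE 0.14, adjusted p = 0.00137), and this held in all 12 fits without 1 library. In mT69a it fell by 0.53 in the knockout (SE 0.14, adjusted p = 0.0476), just under the threshold, and in 8 of the 12 such fits the adjusted p lay above it, from 0.0586 to 0.257. Those were the fits without any 1 of the mT69a libraries or of the mT6 knockout libraries, with 0.135 and 0.215 without mT69a control 1 and 2, 0.19 and 0.257 without knockout 1 and 2, 0.0847 and 0.0801 without vector 1 and 2, and 0.0666 and 0.0586 without mT6 knockout 1 and 2.

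Scaled for library size, the summed counts of Cldn18 in the vector libraries were 1.06 times the control in mT6 and 0.56 times in mT69a. Averaged over the lines, Cldn18 was 0.40 lower in the vector libraries than in the control (log2 fold change -0.40, SE 0.10, adjusted p = 0.0256). This was lost without mT69a control library 1 or 2 (adjusted p = 0.0583 and 0.0878), mT69a vector library 1 or 2 (0.113 and 0.0724), mT6 control library 1 (0.0917) or mT6 vector library 2 (0.088). The difference between the lines in the knockout effect was -0.58 (SE 0.20, adjusted p = 0.137), and it passed with the replicate block (-0.58, adjusted p = 0.0283). The summed CPM of a list of intestinal markers (Cdx1, Cdx2, Vil1, Lgals4 and Muc2, of which 4 of 5 were measured) was lower beside Cldn18 in mT69a. It went from 1108 to 1122 CPM in the control to 450 to 456 CPM in the knockout and 295 to 312 CPM in the vector libraries. A sum follows its most abundant genes and does not show that each gene of the list fell. In mT6 the same sum went from 684 to 777 CPM through 529 to 715 CPM to 196 to 317 CPM, where Cldn18 overlapped between conditions. The gastric mucous list, 7 of 8 measured, summed to 25.6 to 31.1, 7.39 to 16.4 and 16.7 to 18.2 CPM in mT69a. In mT6 it summed to 37.6 to 75.8 CPM in the control, 69.8 to 78.8 CPM in the knockout and 33.2 to 52.9 CPM in the vector libraries. In mT69a, Cdx1 was at 0 in every library, and Muc2 was at 0 in the control. The part of these cell-type markers in the Cldn18 values was not tested, and in bulk RNA fewer cells of a type and less RNA per cell cannot be told apart.

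The Cldn18 gene (chromosome 9, 99689461 to 99717267, minus strand, GRCm38) has alternative first exons, which encode the first extracellular part of the protein and are known as gastric and lung forms. The coding parts of both are shown, since the isoform values below divide the gene by them. They are from GENCODE M21 transcripts, written 5′ to 3′ on the minus strand, with the gastric one at chr9:99716996-99717215 and the lung one at chr9:99709729-99709948, and capitals mark the bases that differ.
Cldn18-202 (gastric): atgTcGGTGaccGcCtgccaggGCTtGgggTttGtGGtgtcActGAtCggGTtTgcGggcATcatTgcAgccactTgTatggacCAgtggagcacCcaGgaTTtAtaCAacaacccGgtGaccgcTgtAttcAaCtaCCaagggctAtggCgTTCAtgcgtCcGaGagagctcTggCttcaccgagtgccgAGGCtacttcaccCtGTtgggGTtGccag
Cldn18-201 (lung): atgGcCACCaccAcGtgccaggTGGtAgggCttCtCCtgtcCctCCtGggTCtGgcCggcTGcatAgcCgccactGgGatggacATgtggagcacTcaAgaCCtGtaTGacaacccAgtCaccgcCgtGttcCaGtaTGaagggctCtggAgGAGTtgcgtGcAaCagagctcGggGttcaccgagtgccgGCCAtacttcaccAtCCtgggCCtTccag
The 2 exons have 220 coding bases each and differ at 67 of them (69.5% identical), and 20 of the 73 whole codons encode another residue. Of the 4 annotated transcripts, Cldn18-202 and Cldn18-203 start with the gastric exon and Cldn18-201 and Cldn18-204 with the lung exon.

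**Figure D3:**
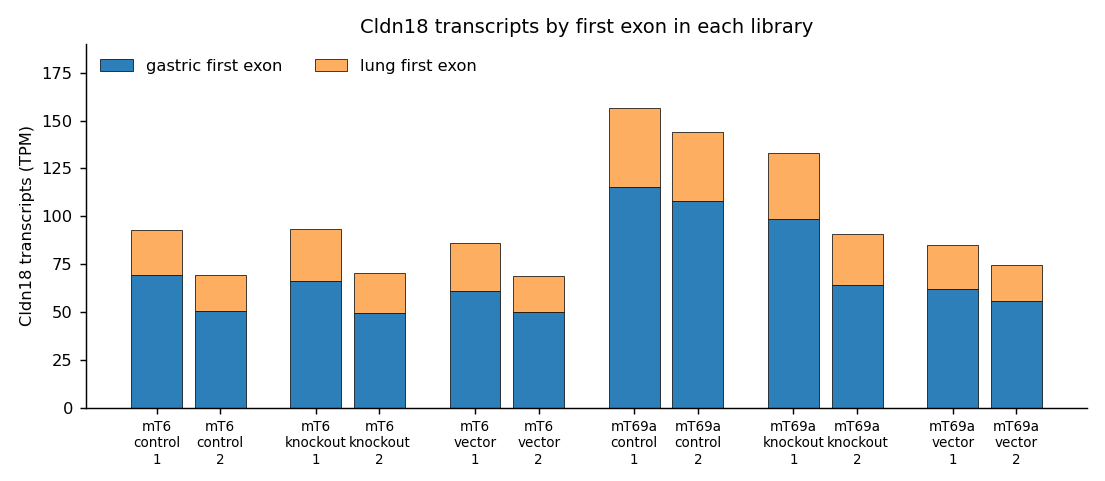
Abundance of Cldn18 transcripts (TPM, stacked bars from 0) by first exon in each of the 12 libraries. The gastric part is the larger in every library, at 70.2% to 74.9% of the total, and the total is highest in the mT69a control.

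Transcripts with the gastric first exon made up 70.2% to 74.9% of Cldn18 TPM over the 12 libraries, with a median of 72.8%. The group means were 73.6%, 70.7% and 71.3% in the control, knockout and vector libraries of mT6, and 74.2%, 72.2% and 73.9% in those of mT69a. The stacked bars show the total of Cldn18 changing in mT69a while the share stayed within 5 percentage points over all libraries. Cldn18-202 carried 47.0 to 108 TPM and Cldn18-201 18.5 to 41.4 TPM, and the short Cldn18-203 and Cldn18-204 stayed at or below 7.35 and 0.60 TPM. By expected counts, which do not correct for length, the gastric share was 47.9% to 54.1%. The main transcripts differ at the 3′ end as well as in the first exon: Cldn18-201 is 4172 bases long with a last exon of 3434 bases, and Cldn18-202 is 1750 bases long with a last exon of 1075 bases. Reads from the first exon and from the 3′ end cannot be told apart in these estimates. The shares are given as a description, and no test of them was made.

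Cldn3 (chromosome 5, 134986214 to 134987472 on GRCm38, plus strand) had knockout values of opposite sign in the lines, neither of which passed the test. In mT6 it stood at 144 and 149 CPM in the control, 121 and 121 CPM in the knockout and 146 and 97.4 CPM in the vector libraries. In mT69a it stood at 86.9 and 112 CPM in the control, 162 and 153 CPM in the knockout and 194 and 173 CPM in the vector libraries. The mT69a control libraries were the lowest of that line without overlap. The log2 fold change in the knockout was -0.27 in mT6 (SE 0.19, adjusted p = 0.526) and 0.67 in mT69a (SE 0.19, adjusted p = 0.0539), and their difference was 0.94 (SE 0.26, adjusted p = 0.0630). With the replicate block the last 2 values of Cldn3 passed, at 0.66 (adjusted p = 0.0255) and 0.93 (adjusted p = 0.0269). They also passed without mT6 vector library 1 (adjusted p = 0.0155 and 0.0193) or 2 (0.0158 and 0.0193). The mT69a control was lower than the mT6 control in Cldn3 (log2 fold change -0.56, SE 0.19, adjusted p = 0.0467), a call that held in 3 of 12 fits without 1 library, those without mT6 vector library 1 or 2 or mT69a control library 2. Without mT69a control library 1 the value was -0.38 (adjusted p = 0.305), and in the other 8 fits the adjusted p was 0.0620 to 0.152. Averaged over the lines, Cldn3 in the vector libraries differed from the control by 0.31 (adjusted p = 0.156). Without mT6 vector library 2 the value was 0.46. By line, the summed counts of Cldn3 scaled for library size were 0.83 times the control in mT6 and 1.88 times in mT69a.

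**Figure D4:**
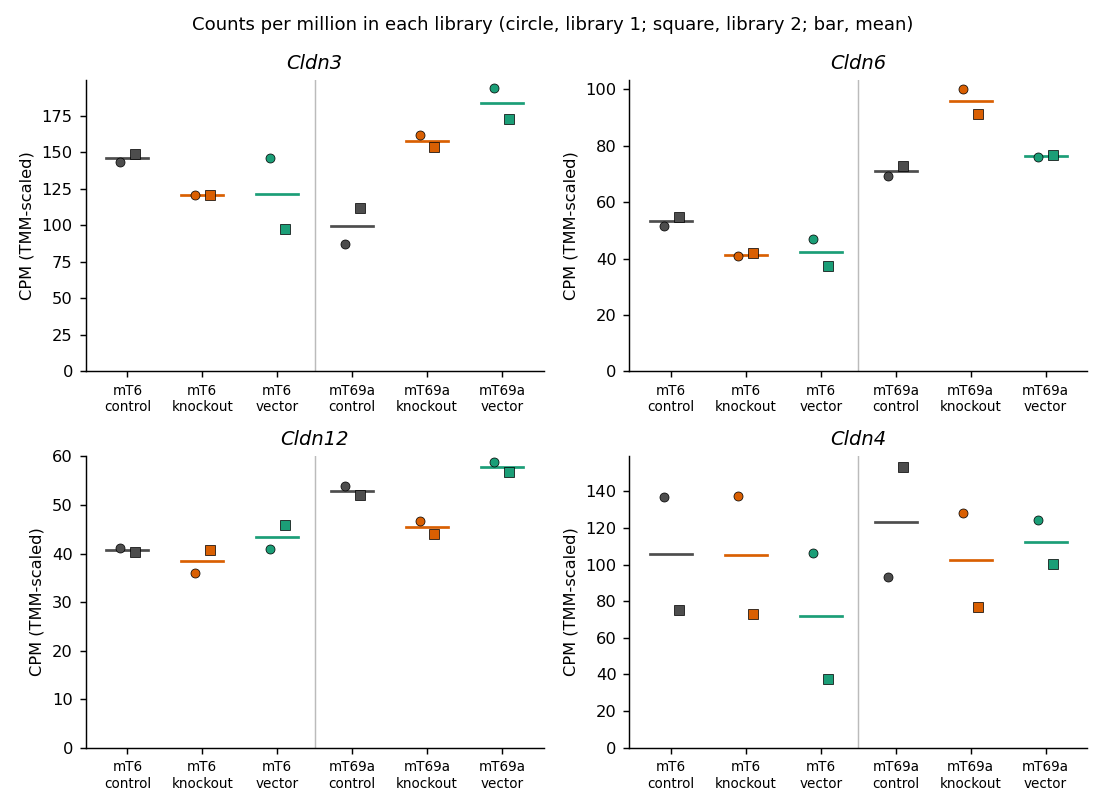
CPM scaled by TMM factors (linear axes from 0) of Cldn3, Cldn6, Cldn12 and Cldn4 in each library; circles are libraries 1, squares libraries 2 and bars group means. Cldn3 and Cldn6 are lower in the mT6 knockout and higher in the mT69a knockout than in the control of the line, and Cldn4 differs more between libraries of a group than between groups.

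Cldn4 lies on the opposite strand of chromosome 5, 39279 bases from Cldn3. It varied between libraries of the same group more than any other measured member above 1 TPM. It stood at 137 and 75.2 CPM in the mT6 control, 137 and 72.8 CPM in the mT6 knockout and 106 and 37.4 CPM in the mT6 vector libraries. In mT69a it stood at 93.4 and 153 CPM in the control, 128 and 76.9 CPM in the knockout and 124 and 100.2 CPM in the vector libraries. Library 1 was higher than library 2 in 5 of 6 groups, with ratios from 0.609 to 2.84 and a median of 1.74, beside the mitochondrial share that also differed by library number. No comparison of Cldn4 passed the test, and its standard errors of 0.38 to 0.76 on the log2 scale leave even changes of the size seen for Cldn2 hard to call within 1 line.

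No comparison of Cldn7 passed the test. Its mT6 libraries lay between 79.9 and 108 CPM and its mT69a libraries between 115 and 141 CPM. All conditions overlapped in mT6. In mT69a both vector libraries (135 and 141 CPM) lay above both controls (127 and 134.5 CPM), and the knockout libraries (136 and 115 CPM) overlapped with both. The knockout differed from the control by -0.08 (SE 0.10, adjusted p = 0.753) and the vector from the knockout by 0.03 (SE 0.10, adjusted p = 0.942). The mT69a control was above the mT6 control by 0.37 (SE 0.14, adjusted p = 0.0736; 0.0169 with the replicate block and 0.0415 without mT6 vector library 2).

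Of the remaining members, Cldn6 is a claudin of embryonic epithelia that reappears in some tumours. It stood at 51.5 and 54.9 CPM in the mT6 control, 41.0 and 41.8 CPM in the mT6 knockout and 47.1 and 37.3 CPM in the mT6 vector libraries. In mT69a the values were 69.1 and 72.8 CPM in the control, 100.3 and 91.3 CPM in the knockout and 76.0 and 76.9 CPM in the vector libraries. The knockout libraries were thus below the control in mT6 and above it in mT69a without overlap. The log2 fold changes were -0.36 in mT6 (SE 0.13, adjusted p = 0.171) and 0.43 in mT69a (SE 0.13, adjusted p = 0.0652; 0.0161 with the replicate block, and 0.0368 and 0.0401 without mT6 vector library 1 and 2). Their difference of 0.80 passed (SE 0.18, adjusted p = 0.0258). That call held in 2 of 12 fits without 1 library, those without mT6 vector library 1 or 2, and in the other 10 the adjusted p was 0.0544 to 0.113, the highest without mT69a knockout library 1, with the log2 difference of Cldn6 between 0.72 and 0.86.

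Cldn6 lies on chromosome 17 (23679249 to 23682446, plus strand, GRCm38), as does Spdef. Over the 691 tested genes of that chromosome the median log2 fold change in the knockout was -0.44 in mT6 and 0.03 in mT69a, and the median difference between the lines was 0.50. The other member chromosomes (5, 8, 9, 11, 16 and X) had medians between -0.02 and 0.07 in the mT6 knockout. The part of this chromosome-wide shift in the Cldn6 values was not tested. In the controls, Cldn6 was higher in mT69a than in mT6 by 0.41 (SE 0.13, adjusted p = 0.0337), against a chromosome 17 median of -0.43. That call was lost without either control library of either line (adjusted p = 0.0889 to 0.149) or mT69a vector library 1 (0.0560).

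Cldn12, an unusual claudin whose tail lacks the motif that binds PDZ scaffolds, had the narrowest range. It stood at 41.1 and 40.3 CPM in the mT6 control, 36.1 and 40.7 CPM in the knockout and 40.9 and 45.8 CPM in the vector libraries. In mT69a it stood at 53.8 and 52.1 CPM, 46.7 and 44.1 CPM and 58.9 and 56.8 CPM in the same order, with no overlap between the 3. The vector against the knockout gave 0.26 averaged over the lines (SE 0.08, adjusted p = 0.0835) and 0.35 in mT69a (SE 0.11, adjusted p = 0.141). With the replicate block both passed (0.26, adjusted p = 0.0283, and 0.35, adjusted p = 0.0460). The mT69a control was above the mT6 control by 0.38 (SE 0.11, adjusted p = 0.0299), which was lost without any 1 of the 4 control libraries (adjusted p = 0.0536 to 0.133) or mT69a vector library 1 (0.0511).

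Cldn23, an atypical claudin of the intestinal surface epithelium, had 4.42 to 5.86 CPM in the 6 mT6 libraries. In mT69a it had 5.81 and 8.55 CPM in the control, 11.3 and 7.65 CPM in the knockout and 11.5 and 12.1 CPM in the vector libraries. The vector libraries were the highest, but no comparison of Cldn23 passed (adjusted p from 0.199 to 1).

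**Figure D5:**
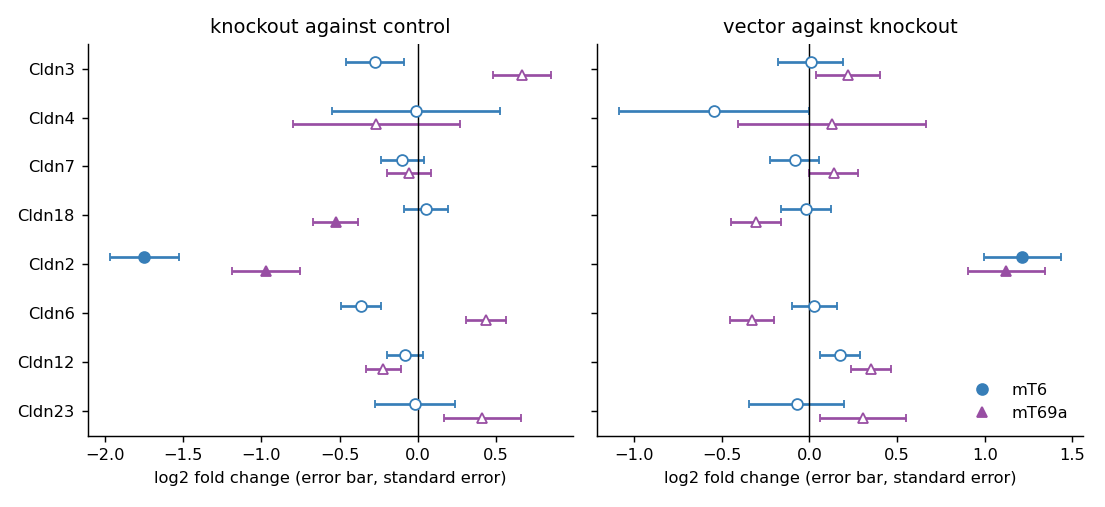
Log2 fold changes of 8 claudins by line (circles mT6, triangles mT69a), knockout against control on the left and vector against knockout on the right; error bars are standard errors and filled symbols passed the adjusted threshold of 0.05. Cldn2 is filled in both lines and in both panels, with values of -1.75 and -0.97 on the left and 1.21 and 1.12 on the right, and Cldn18 is filled for mT69a on the left.

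Counted over the 9 measured members, 1 rose (Cldn1) and 1 fell (Cldn2) in the knockout averaged over the lines, where 5.6% of all 14473 genes passed, 3.3% higher and 2.3% lower. Cldn1 is among the 9 only through the groups where it is high, and of the other 8 members none rose and 1 fell. With the vector against the knockout 1 rose (Cldn2) and none fell, where 7.77% of all genes passed, 4.46% higher and 3.32% lower. Under the replicate block Cldn12 made it 2, but over all genes 2293 then passed, against 1125 without the block. With the vector against the control 1 rose (Cldn1, with the same reservation) and 1 fell (Cldn18), where 14.5% passed, 8.04% higher and 6.41% lower. Cldn18 was lower in mT69a alone. The 3 comparisons share libraries in pairs.

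Within mT6, 1 member fell in the knockout (Cldn2), where 3.23% of all genes passed, 1.28% higher and 1.96% lower. With the replicate block Cldn1 rose too, but over all genes 1809 then passed, against 468 without the block. Within mT69a, 2 fell in the knockout (Cldn2 and Cldn18), where 8.6% passed, 4.88% higher and 3.71% lower. With the block Cldn3 and Cldn6 rose too, but over all genes 2320 then passed, against 1244 without the block. With the vector against the knockout 1 rose in mT6 (Cldn2), where 2.69% passed, 1.55% higher and 1.14% lower. In mT69a 1 rose as well (Cldn2), where 4.25% passed, 2.57% higher and 1.68% lower. Cldn12 joined it under the block, where over all genes 1533 passed, against 615 without the block. As the plot of fold changes by line shows, Cldn2 lay apart from the other 7 members drawn on both sides.

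The knockout effect was higher in mT69a than in mT6 for 1 member (Cldn6), where 6.62% of all genes differed, 4.04% higher and 2.58% lower. With the replicate block Cldn2 and Cldn3 passed in the same direction and Cldn18 in the opposite one. Over all genes 2206 then differed, against 958 without the block. For the vector effect edgeR called 0 members, with 0 at an unadjusted p under 0.05 and 0 by DESeq2, against 0.0138% of all genes. Between the controls, 3 members were higher in mT69a (Cldn6, Cldn12 and Cldn18) and 1 lower (Cldn3), where 28.2% of all genes passed, 13.4% higher and 14.7% lower. The median log2 fold change of the 9 members was -0.08 in the knockout (all genes 0.00), 0.11 with the vector against the knockout (all genes -0.02), -0.05 with the vector against the control (all genes -0.02) and 0.37 between the controls (all genes -0.03). With 9 genes such shares are coarse, and they are not read as particular to the family.

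Outside the members, 13 of the other 23 claudin genes had no count in any library and 8 had at most 14 counts summed over all libraries. The remaining Cldn8 and Cldn9 passed the count filter. Cldn9, best known from the inner ear, lies 137 bases from Cldn6 on the opposite strand. Its counts were 9 and 14 in the mT69a control, 14 and 19 in the mT69a knockout and 152 and 115 in the mT69a vector libraries. In mT6 it had 1 and 5, 1 and 9, and 7 and 3 counts. The mT69a vector libraries thus stood apart, at 9.02 and 10.4 CPM against at most 1.65 CPM in the other libraries. In mT69a, Cldn9 rose with the vector over the knockout by 3.05 (SE 0.53, adjusted p = 0.00934), an 8.06-fold ratio of means, and averaged over the lines by 1.996 (SE 0.47, adjusted p = 0.0283). Averaged over the lines it was also higher with the vector than in the control by 2.83 (SE 0.50, adjusted p = 0.00391).

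The rise of Cldn9 in mT69a was lost without knockout library 1 (adjusted p = 0.0997), vector library 1 (0.0673) or vector library 2 (0.0749), where the lone library of a group is assumed to vary like the rest. The average against the knockout was lost without mT6 vector library 1 (adjusted p = 0.193), mT6 knockout library 1 (0.0615), mT69a knockout library 1 (0.0821) or mT69a vector library 1 or 2 (0.0777 and 0.0834), and that against the control without mT6 vector library 1 (0.0516). The difference between lines in this rise was 2.11 (SE 0.94) and did not pass (adjusted p = 1). The neighbouring Cldn6 changed by -0.33 in the same comparison in mT69a (SE 0.13, adjusted p = 0.232). Counts on opposite strands depend on the strand setting of the counting, which is not given in the sources used here, although the library kit marks strand.

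Cldn8, a claudin of the kidney's collecting duct, was a gene of mT6. In mT6 its counts were 205 and 963 in the control, 71 and 326 in the knockout and 24 and 137 in the vector libraries, against 0 to 5 in every mT69a library. Scaled for library size, the mT6 values were 15.6 and 34.4 CPM in the control, 6.28 and 16.0 CPM in the knockout and 2.80 and 16.1 CPM in the vector libraries. All conditions of mT6 thus overlapped. Cldn8 passed the count filter only through the mT6 libraries, so the call between the controls (fitted log2 fold change -6.96, SE 1.12, adjusted p = 0.00234) adds no support to these counts. Within mT6, library 2 was higher than library 1 in each condition, and no comparison of Cldn8 between conditions passed the test, although without the filter on low counts the mT6 knockout did (log2 fold change -1.15, adjusted p = 0.000239).

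Claudins are anchored to the cytoskeleton by scaffold proteins and work beside other membrane proteins. Over all genes, the share that passed was 5.6% in the knockout, 7.77% with the vector against the knockout and 14.5% with the vector against the control. Of the 19 calls of list genes in these averaged comparisons, 16 were lost in limma's fit on log2(TPM + 1) without a filter (adjusted p = 0.101 to 0.834), all but both calls of Evpl and that of Ildr1 against the knockout. Of 35 listed tight junction scaffold and membrane partner genes, 33 were measured. In the knockout averaged over the lines 1 rose and 0 fell, and with the vector against the knockout 1 rose and 1 fell, at a list median of 0.00 and -0.10. These counts of 1 and 2 among 33 are not above the shares over all genes. Mpdz, a scaffold with many PDZ domains, was the gene that rose each time. It stood at 6.78 and 7.11 CPM in the mT6 control, 3.98 and 5.56 CPM in the mT6 knockout and 8.998 and 8.57 CPM in the mT6 vector libraries. In mT69a it stood at 1.06 and 1.01 CPM in the control, 6.34 and 5.91 CPM in the knockout and 9.38 and 8.93 CPM in the vector libraries. Averaged over the lines Mpdz was 1.01 higher in the knockout (SE 0.15, adjusted p = 0.00347) and 0.72 higher again with the vector (SE 0.14, adjusted p = 0.0102), the latter lost without mT69a vector library 1 (0.0536). By line, the value in the knockout was 2.56 in mT69a (adjusted p = 9.95e-05) and, without passing, -0.53 in mT6 (adjusted p = 0.197), and the lines differed by 3.08 (adjusted p = 0.000314).

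Ildr1, an angulin of the corners where 3 cells meet, fell with the vector by 1.01 against the knockout (SE 0.16, adjusted p = 0.00321). It stood at 18.1 and 29.9 CPM in the mT6 knockout and 9.70 and 13.7 CPM in the mT6 vector libraries, and at 66.3 and 57.4 CPM and 32.0 and 30.5 CPM in those of mT69a, with no overlap in either line. Against the control 1 gene of the list rose (Mpdz) and 2 fell (Ildr1 and F11r, the junctional adhesion molecule A). Ildr1 fell by 0.63 (SE 0.16, adjusted p = 0.0271), and the call was lost without mT6 control library 2, mT6 vector library 1 or any 1 of the mT69a control and vector libraries (adjusted p = 0.0660 to 0.0899). F11r fell by 0.29 (SE 0.08, adjusted p = 0.0419), and without any 1 library other than mT6 vector library 1 the call was lost (adjusted p = 0.0528 to 0.158).

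Of 15 listed claudin-binding and matriptase-system genes, all were measured. In the knockout 1 rose (Cd81, a tetraspanin, by 0.39, SE 0.08, adjusted p = 0.0209) and 1 fell (Tspan8, another tetraspanin, by 0.60, SE 0.11, adjusted p = 0.0104). With the vector against the knockout 1 rose and 2 fell. Epcam, which encodes the adhesion molecule that holds Cldn7 and Cldn1 at the membrane, rose by 0.49 (SE 0.11, adjusted p = 0.0247). It stood at 325 and 381 CPM in the mT6 knockout and 410 and 451 CPM in the mT6 vector libraries, and at 344 and 373 CPM against 551 and 603 CPM in mT69a, with no overlap. The kinase gene Wnk4, whose product is known to phosphorylate claudins, fell by 0.96 (SE 0.23, adjusted p = 0.0289), and Cd81 fell by 0.33 (SE 0.08, adjusted p = 0.0372). Against the control none rose and 3 fell: Wnk4 by 1.36 (SE 0.23, adjusted p = 0.00262), the ephrin gene Efnb1 by 0.55 (SE 0.11, adjusted p = 0.00612) and Tspan8 by 0.45 (SE 0.11, adjusted p = 0.0209). With 15 genes, such counts are coarse beside the shares of all genes in these comparisons (5.6%, 7.77% and 14.5%). They are not read as particular to the list. The calls of Wnk4 and Efnb1 against the control held in all 12 fits without 1 library, but not in limma's fits on log2 TPM, where the adjusted p reached 0.464 and 0.182. That of Tspan8 in the knockout was lost without mT69a knockout library 1 (adjusted p = 0.0614), and that against the control without mT6 vector library 1, mT6 control library 2, mT69a vector library 1 or mT69a control library 2 (0.0502 to 0.0983). That of Epcam was lost without mT6 knockout library 1, mT6 vector library 2 or any 1 of the mT69a knockout and vector libraries (0.0580 to 0.0989). That of Wnk4 against the knockout was lost without mT6 vector library 1, mT6 knockout library 2, mT69a knockout library 1 or 2 or mT69a vector library 2 (0.0733 to 0.0950). Cd81 in the knockout was lost without any 1 of the mT6 control and knockout libraries, mT69a control library 1 or mT69a knockout library 1 (0.0532 to 0.0991), and Cd81 with the vector without any 1 library other than the mT69a controls (0.0541 to 0.164).

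Of 17 adherens junction and desmosome genes, all were measured. Their counts are likewise coarse beside the 5.6%, 7.77% and 14.5% of all genes, and are not read as particular to the list. Evpl, a plakin of the desmosome and cornified envelope, was the 1 gene that rose in the knockout, by 0.80 (SE 0.13, adjusted p = 0.00601), and it fell with the vector by 0.78 (SE 0.13, adjusted p = 0.00528). It stood at 20.8 and 33.6, 53.9 and 59.0, and 29.7 and 30.6 CPM in the control, knockout and vector libraries of mT6, and at 39.1 and 40.7, 57.2 and 60.7, and 34.7 and 39.8 CPM in those of mT69a. The knockout libraries were the highest of each line, the mirror image of Cldn2, and both calls held in all 12 fits without 1 library. Ctnnb1, which encodes beta-catenin, also fell with the vector, by 0.50 against the knockout (SE 0.12, adjusted p = 0.0236) and by 0.40 against the control (SE 0.11, adjusted p = 0.0426). The first was lost without mT6 knockout library 1, mT6 vector library 2, mT69a knockout library 1 or mT69a vector library 1 or 2 (adjusted p = 0.0769 to 0.123), and the second without any 1 library other than the mT6 knockouts and mT6 vector library 1 (0.0616 to 0.170). Against the control the other gene that fell was Cdh3, P-cadherin, by 1.47 (SE 0.33, adjusted p = 0.0146), which was lost without mT6 control library 1, mT69a control library 1 or mT69a vector library 1 (0.0526 to 0.0764).

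The genes whose profile was most like that of a member were taken by Pearson's r over log2 CPM of the 12 libraries after each line's mean was subtracted, as a description with no test. For Cldn2 they were Pask (r = 0.956), Slmap (0.943) and 2810459M11Rik (0.943). For Cldn12 they were Tspan13 (0.946), Ern2 (0.935) and Pctp (0.935). For Cldn6 they were Elf1 (0.937), Ifit2 (0.930) and Clcf1 (0.917). The 12 points of each r share the same libraries, depth and condition groups.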

How the data were processed

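RNA was measured in 12 libraries (6 groups of 2). Per the labels, a stranded total RNA kit (TruSeq) was used. FastQC 0.11.8, STAR 2.5.2b, RSEM 1.3.0 and the GRCm38.p6 build are named by the submitters' processing notes. The authors deposited expected counts and TPM per gene and per transcript; expected counts were rounded to whole numbers here (8.08% to 11.3% per library were not whole within 0.005). Depth was 9094295 to 28903831 counts per library.

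Genes passing edgeR's filterByExpr by group (14473) were fitted with edgeR 4.0.16 (TMM, robust quasi-likelihood, 6 group means, 6 residual degrees of freedom), with a common biological coefficient of variation of 19.2%. Comparisons are contrasts of that fit, two-sided, with Benjamini-Hochberg adjustment over all genes and a threshold of 0.05. CPM are TMM-scaled. The fit was also run on simulated counts drawn independently for each library, which lack the shared deviation given next. That run therefore cannot show how the fit behaves under such a deviation. Libraries with the same replicate number deviated together (15 of 15 pairs of groups, r from 0.205 to 0.531, median 0.282), which the labels do not explain, so the fit with the number as a block is given beside results it changes. Alternatives were RLE factors, DESeq2 1.42.0, no filter, the block, limma 3.58.1 on log2(TPM + 1) with and without a filter (mean TPM of at least 1) and on log2(TPM + 0.1), the compared libraries only, and each library left out. Identifiers were matched to GENCODE M21 (53620 of 53715 without version). R 4.3.3 and Python 3.11.15 were used.

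The members, lists and comparisons were chosen with earlier results of these data known. Named are all members, other claudins that passed the filter, Spdef, up to 3 genes per list and averaged comparison with the smallest adjusted p past the threshold, and the 3 protein-coding genes most like each of the 3 members with the smallest p for vector against knockout. The lists are the other claudins, tight junction scaffold and membrane partners, the claudin-binding and matriptase system, and adherens junction and desmosome genes. Cell markers covered ductal, gastric mucous, intestinal, acinar, fibroblast, endothelial and immune cells. A further part of the tumour genotype, shared by all groups, is not reported here.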

Additional observations from a re-analysis of the deposited data

Results flagged for a closer look

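For 4 of the genes described above the effect of the knockout differed between the lines by the test of the difference itself (edgeR, adjusted over all genes), written as mT69a minus mT6 on the log2 scale. Mpdz differed by 3.08 (adjusted p = 0.000314), with 2.56 in mT69a and -0.53 in mT6. Cldn6 differed by 0.80 (adjusted p = 0.0258), with 0.43 and -0.36, neither of which passed alone. The median of this difference over the tested genes of chromosome 17, where Cldn6 lies, was 0.50. Tspan8 differed by -1.04 (adjusted p = 0.0185), with -1.12 in mT69a (adjusted p = 0.00151) and -0.08 in mT6. Ildr1 differed by -1.35 (adjusted p = 0.0271), with -0.29 in mT69a and 1.06 in mT6 (adjusted p = 0.0329). Among all genes tested, 6.62% differed in this way.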

How the results depend on the processing

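Averaged over the lines, the Cldn2 calls in the knockout and with the vector against the knockout, and its fall in the mT6 knockout, held in every alternative and in all 12 fits without 1 library. The counts of members below are read against the counts of 2, 1 and 2 for the averaged comparisons (knockout against control, vector against knockout, vector against control), 1 and 2 for the knockout in mT6 and mT69a, 1 and 1 for the vector against the knockout in those lines, 1 and 0 for the line differences, and 4 between the controls. With the 3 limma fits on log2 TPM the counts were 1 for the averaged knockout, 0 for vector against control, 0 for the mT69a knockout, 0 for the vector in each line, 0 for the line difference of the knockout and 0 between the controls. Over all genes, limma on log2(TPM + 1) called 285, 758, 412, 165 and 225, 289 and 1278 in the same order. The TPM filter also removed Cldn1, which had no value there. With the replicate block the member counts were 2 for the averaged vector against knockout, 2 for the mT6 knockout, 4 for the mT69a knockout, 2 for the vector in mT69a, 4 for the line difference of the knockout and 5 between the controls. Over all genes the block gave 2293, 1809, 2320, 1533, 2206 and 6052 calls in the same order. The block added calls of members and took away none. With the compared libraries only the member counts were 1 for the averaged knockout, 1 for vector against control, 3 for the mT69a knockout, 0 for the vector in mT6, 2 for the line difference of the knockout and 1 between the controls. Over all genes that setting gave 706, 1673, 1464, 26, 805 and 3119 calls in the same order. Without the filter the member counts were 3 for vector against control, 2 for the mT6 knockout, 3 for the mT69a knockout, 3 for the line difference of the knockout and 2 between the controls. Over all genes, of which more were then tested, the calls were 2639, 1089, 1813, 1577 and 4498 in the same order. DESeq2 gave 4 for the mT69a knockout (1307 over all genes) and 2 for the line difference of the knockout (1107 over all genes). RLE factors gave 1 for the mT69a knockout (1239 over all genes). Leaving out each library gave 1 to 2 for the averaged knockout and for vector against control, 0 to 4 for the mT69a knockout, 0 to 1 for the vector against the knockout in each line, 0 to 2 for the line difference of the knockout and 1 to 5 between the controls, with 1 library then assumed to vary like the other groups. The gastric share of Cldn18 by expected counts in place of TPM was 52.4%, 48.5% and 49.1% in the mT6 groups and 52.4%, 50.3% and 52.7% in the mT69a groups. Over all genes the number called depended on the fit as well: 810, 1125 and 2092 in the averaged comparisons became 2171, 2293 and 3677 with the replicate block and 285, 447 and 758 with limma on log2(TPM + 1). Over all alternatives but the fits without 1 library, the counts ran from 13 to 1809 for the mT6 knockout (468), 412 to 2320 for the mT69a knockout (1244), 26 to 1055 and 202 to 1533 for the vector in mT6 and mT69a (389 and 615), 239 to 2206 and 1 to 196 for the line differences (958 and 2) and 1278 to 6052 between the controls (4078). For the averaged vector against knockout, the split of 645 higher and 480 lower became 214 and 233 with limma on log2(TPM + 1), whose median over all genes was -0.12. Of 1774 member values under the alternatives, 1570 kept their direction and call, 97 lost a call, 27 gained one, 80 that passed in neither setting changed sign, and no called value changed sign. Of the list genes, the Evpl calls and the fall of Ildr1 against the knockout held in every alternative. The other 16 of 19 list calls were lost in at least limma on log2(TPM + 1) without a filter. Their highest adjusted p over the alternatives other than the fits without 1 library was, for knockout against control, 0.874 (Mpdz), 0.420 (Cd81) and 0.180 (Tspan8), for vector against knockout, 0.624 (Wnk4), 0.523 (Mpdz), 0.380 (Epcam), 0.360 (Cd81) and 0.276 (Ctnnb1), and for vector against control, 0.470 (Ctnnb1), 0.464 (Wnk4), 0.432 (F11r), 0.256 (Cdh3), 0.182 (Efnb1), 0.173 (Mpdz), 0.129 (Tspan8) and 0.101 (Ildr1). Depth limits Cldn1 and Cldn15, whose counts lie near the floor of 3, and the cause of the other changes was not tested.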
